A study of Populus tremula x Populus alba with 6 samples.

Results

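The genes described here are 10 poplar NAC genes, listed as of the SND1/WND type or of the VND type, and the peaks called at them after chromatin immunoprecipitation sequencing (ChIP-seq) of PtrbHLH011. Members were chosen by gene identifier: every peak that the deposited annotation assigned to one of the 10 identifiers was taken. This gave 15 of 18975 peaks on the Populus alba subgenome and 10 of 17040 peaks on the Populus tremula subgenome, at 7 of the 10 genes. Over the whole lists, 14913 genes had a peak in either list, 13403 on P. alba and 12487 on P. tremula. The total number of annotated genes is not given in the sources used here. No share over all genes can therefore be set beside 7 of 10, which is not read as a result about these genes. The 10 genes were chosen with results of these data known, and the rule uses the peak calls themselves, so their peak values are descriptions and no test was made.

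The ChIP libraries came from mesophyll protoplasts, leaf cells without their walls, of the hybrid Populus tremula x Populus alba, in which PtrbHLH011 fused to 10 copies of the Myc epitope (PtrbHLH011-10xMyc) was transiently expressed. The study made 3 anti-Myc ChIP libraries and 3 input libraries without antibody, all from cells that expressed the fusion and were fixed for 8 min in 1% formaldehyde. No library without the fusion is among these 6, and the fusion was an introduced copy, not the cells' own gene product. The peak tables tie no value to a labelled library, so no spread between replicates could be given, and the tissue label could not be checked against expressed markers.

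NAC proteins are plant transcription factors with a shared DNA-binding domain. In Arabidopsis, the SND1 and related NST proteins switch on secondary wall formation in fibres, and the VND proteins do so in the water-conducting vessels. Both act at the top of a cascade through MYB regulators to the enzymes that make cellulose, xylan and lignin. PtrbHLH011 belongs to the basic helix-loop-helix (bHLH) family, whose members bind short DNA motifs called E-boxes, and the series as a whole concerned iron deprivation and cell walls. The comparison here asks where, and how strongly, the called peaks of this factor lay at the NAC genes. The tables do not say which of the 10 genes is of which type, so no type is given to a single identifier. The genes were taken as 5 pairs in the order in which they were listed, and the tables do not state that the genes of a pair are paralogs.

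Peaks at these genes fell into 2 very unequal kinds. The first pair, Potri.014G104800 and Potri.002G178700, held all the deep ones, with 1347, 82 and 79 reads at the P. alba summits and 1299 and 39 reads at the P. tremula ones. The pileup is the number of reads stacked over the summit, and the fold is that number plus 1 over the peak caller's local background plus 1. The other 12 P. alba and 8 P. tremula peaks had 5 to 9 and 6 to 9 reads, with folds of 2.93 to 5.03 and of 2.94 to 5.04. Their median folds, 3.52 and 3.53, equalled those of the whole lists to the digits given. A fold of 5 or more was reached by 4 of the 15 P. alba and 3 of the 10 P. tremula peaks, against 8.21% and 8.08% of all peaks in those lists. A fold of 10 or more was reached by 3 and 2, against 0.780% and 0.628% of all peaks. These counts come from the values by which the genes were chosen and carry no weight as evidence.

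**Figure D1:**
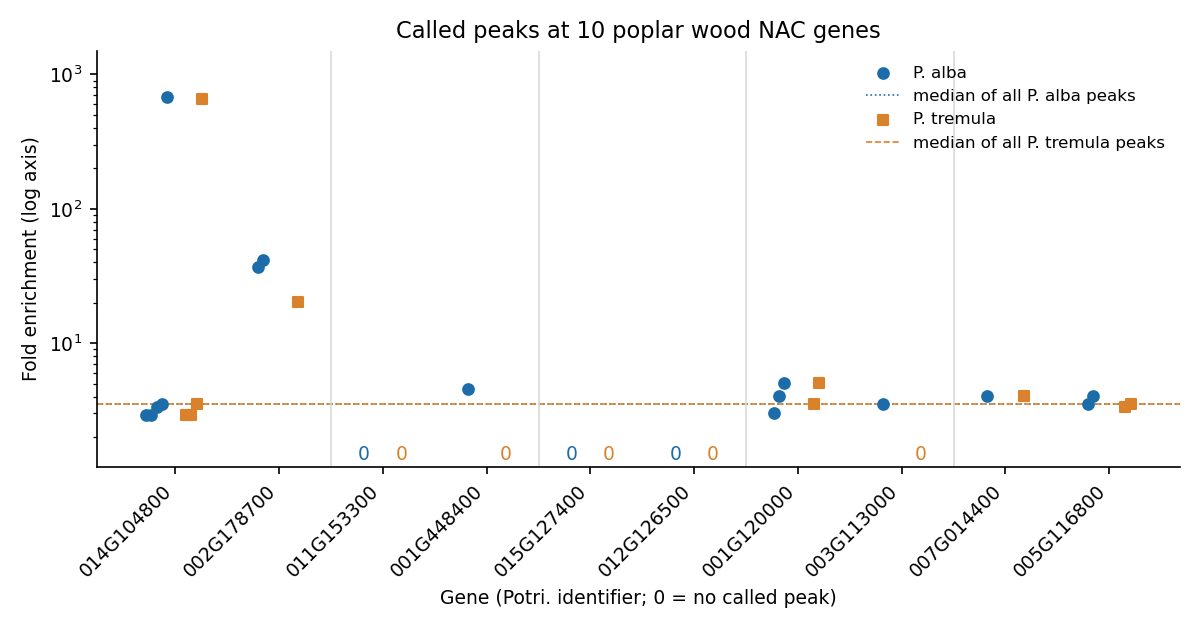
Fold enrichment (log axis) of every called peak at the 10 NAC genes, P. alba as circles and P. tremula as squares, with grey lines between the 5 pairs and broken lines at the medians of all peaks. Peaks of Potri.014G104800 reach 677.7 and 655.0 and those of Potri.002G178700 lie between 20.2 and 41.7, while the other genes stay at 5.04 or below, and a 0 marks a gene with no called peak.

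Potri.014G104800 had the highest fold of each list. On P. alba the peak ran over chromosome 14 from 8224506 to 8225967 (1462 bp), with 1347 reads at the summit (95% Poisson interval 1276 to 1421) and a fold of 677.7. On P. tremula it ran from 8222290 to 8223741 (1452 bp), with 1299 reads (1229 to 1372) and a fold of 655.0. The intervals of the pileups overlap, and like all intervals here they cover counting error only. They treat the pileups as independent counts, which the lists are not taken to be, so nothing is concluded from the overlap. The highest fold at any gene outside the 10 was 40.0 on P. alba and 77.6 on P. tremula.

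This peak lay over the body of the gene and not ahead of it. The gene lies on the minus strand, from 8224319 to 8226114 on P. alba and from 8222103 to 8223887 on P. tremula. The peak began 147 bp past the start and ended 187 bp before the gene end on P. alba, and the distances were 146 and 187 bp on P. tremula. Its summit stood 1308 bp past the start on P. alba and 1372 bp past it on P. tremula, in the last part of the gene. The peak is in the authors' promoter class because its nearest edge lies within 1 kb of the start, and that class does not say whether a position is exon or intron. The tables do not tell reads of the chromosomal gene from reads of any introduced DNA that carries its sequence. Whether the reads at this gene, and at the other gene of its pair, were of chromosomal origin was not tested, so their pileups and folds are given as called and not as a measure of binding.

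The flanks of the gene were shallow. The nearest called peak upstream lay at a gap of 380 bp on P. alba, against 379 bp on P. tremula, and had 6 reads in each list, so the pileup over the gene was 224.5 and 216.5 times as high. On the side of the gene end the nearest called peaks were 4043 and 4036 bp away and also had 6 reads. The upstream peaks had their summits 295 and 292 bp ahead of the start (8226348 to 8226474 on P. alba and 8224121 to 8224247 on P. tremula), with folds of 2.93 and 2.94 and caller q values of 0.143 and 0.148. A further P. alba peak 483 bp ahead of the start had 7 reads (2.81 to 14.4) and a fold of 3.35, and no P. tremula peak was called there. Past the gene end, peaks of 6 reads were called at 3902 and 5057 bp on P. alba and at 3896 and 5053 bp on P. tremula. With 5 P. alba and 4 P. tremula peaks, Potri.014G104800 was the only one of the 10 genes with 4 or more in a list, a number found at 2.89% and 2.29% of all genes with a peak.

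**Figure D2:**
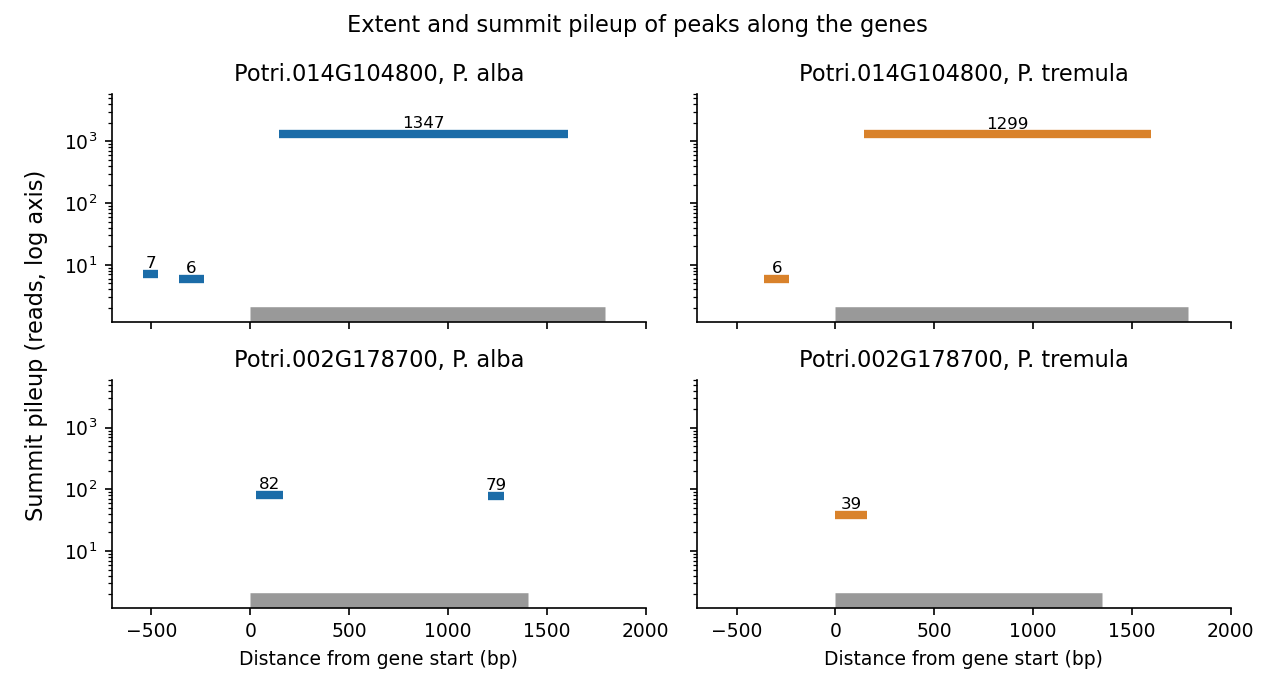
Extent and summit pileup (log axis, reads) of the peaks along Potri.014G104800 and Potri.002G178700, in bp from the gene start, with the gene as a grey bar and P. alba left of P. tremula. Each coloured line is 1 peak with its pileup above it: the 1347 and 1299 read peaks span most of Potri.014G104800, and the peaks of Potri.002G178700 are short and stand near the gene's ends.

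Potri.002G178700, the other gene of that pair, had short, deep peaks. On P. alba the first ran over chromosome 2 from 13810638 to 13810773 (136 bp), with its summit 115 bp past the start, 82 reads (65.2 to 101.8) and a fold of 41.7. The second P. alba peak ran from 13809522 to 13809600 (79 bp), with its summit 161 bp before the gene end, 79 reads (62.5 to 98.5) and a fold of 37.1. On P. tremula there was 1 peak, from 13808051 to 13808213 (163 bp), with its summit 104 bp past the start, 39 reads (27.7 to 53.3) and a fold of 20.2. All 3 lay inside the gene, and no P. tremula peak was called near the gene end. These folds ranked 2 and 4 in the P. alba list and 6 in the P. tremula list.

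The genes of this pair differed widely in the depth of their called peaks. The highest pileup at Potri.014G104800 was 16.4 times that at Potri.002G178700 on P. alba (exact 95% interval 13.1 to 20.8) and 33.3 times on P. tremula (24.2 to 47.1). The wider gap on P. tremula goes with the lower pileup of Potri.002G178700 there. Reads that match similar copies can be placed at either one. How the authors placed such reads is not given in the sources used here, so the split of reads between these genes, and between the subgenomes, is uncertain and was not tested.

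The background at the deep peaks was low for their depth. Because background was recovered from the pileup and the fold, a low value at a given pileup restates a high fold and is not a separate finding. The background was recovered as 0.989 reads at the P. alba peak over Potri.014G104800, against 0.985 reads at the P. tremula one. Both values lie within 0.01 reads of the floor of their list, as do those of 58.9% and 56.7% of all peaks. At Potri.002G178700 the background was 0.989 and 1.15 reads at the P. alba peaks and 0.985 reads at the P. tremula peak. Over all peaks of 50 reads or more, of which P. alba had 763 and P. tremula 756, the median background was 37.9 and 43.5 reads. In a count chosen after the values were seen, 4 of those P. alba peaks and 3 of those P. tremula peaks had a background under 1.2 reads, and 3 and 1 of them were at these 2 genes. Other peaks with 1000 reads or more numbered 48 for P. alba and 49 for P. tremula and had folds of at most 5.06 and 5.79. Which libraries set the background is not given in the sources used here.

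**Figure D3:**
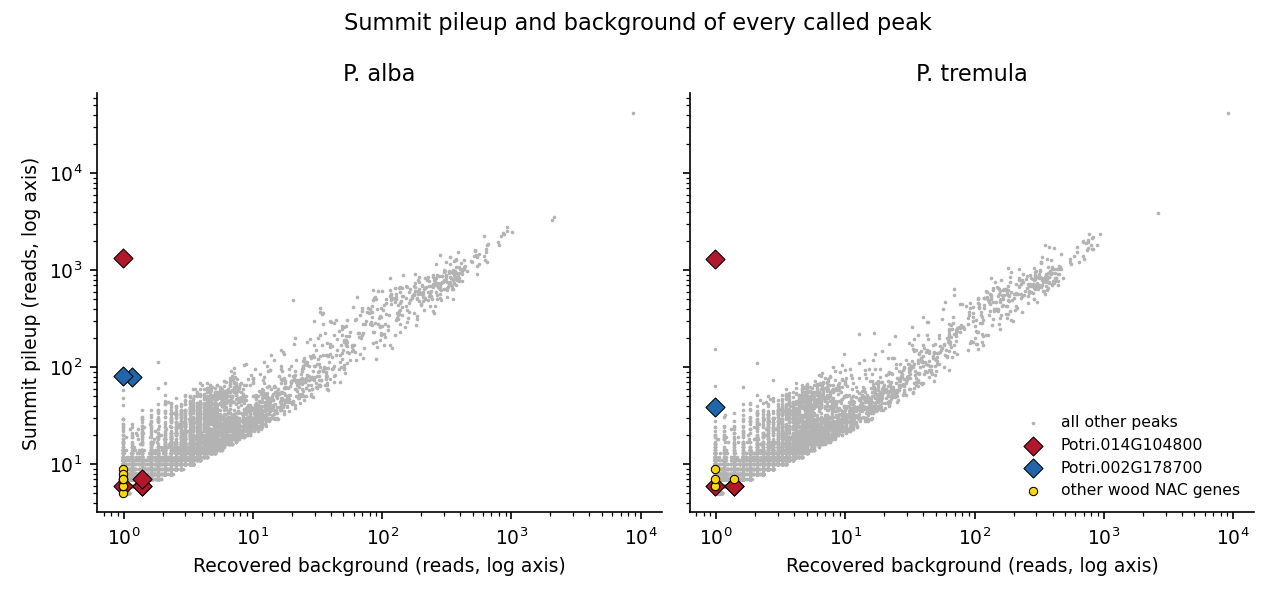
Summit pileup against recovered background, both in reads on log axes, for every called peak, P. alba left and P. tremula right, with Potri.014G104800 in red, Potri.002G178700 in blue and the other NAC genes in yellow. The red points at 1347 and 1299 reads and the blue points at 82, 79 and 39 reads stand at a background near 1 read, away from the grey band in which deep peaks have high backgrounds.

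The peak over Potri.014G104800 was also long. It ranked 23 by length in the P. alba list and 19 in the P. tremula list, and it covered 81.4% and 81.3% of the gene. The other peaks of 1000 bp or more, 35 on P. alba and 34 on P. tremula, had folds of at most 11.6 and 9.74. The peaks most like it were taken as the 5 next highest folds among peaks that cover at least 50% of their gene, of which the lists hold 115 and 96. First among them was Potri.001G206900, where 113 and 111 reads stood over a background of 1.85 and 2.07 reads, with folds of 40.0 and 36.5 and 76.8% and 75.9% of the gene covered. The other 4 of each list lay at genes of 314 to 408 bp on P. alba and of 314 to 382 bp on P. tremula, with folds of 10.97 to 12.8 and 10.8 to 11.4. Their backgrounds were 3.69 to 4.62 and 2.07 to 5.06 reads.

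The second pair, Potri.011G153300 and Potri.001G448400, was nearly without peaks. Potri.011G153300 had none in either list. Potri.001G448400 had 1 on P. alba, on chromosome 1 from 48173530 to 48173686, with 8 reads (3.45 to 15.8), a fold of 4.52 and a q value of 0.000901. This peak lay 9682 bp ahead of the gene start and is in the distal intergenic class. Its assignment to the gene rests on distance alone. The pair of Potri.015G127400 and Potri.012G126500 had no called peak in either list. A gene without a peak is one to which no called region was assigned. Reads below the caller's threshold, or a called region assigned to a neighbouring gene, would not show in these counts.

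The fourth pair had peaks close to the gene start. At Potri.001G120000 a peak of 9 reads stood in each list, 50 and 53 bp past the start of the transcript named in the table. It ran over chromosome 1 from 9615002 to 9615100 on P. alba (fold 5.03) and from 9616775 to 9616873 on P. tremula (fold 5.04). Its fold was above that of 91.8% of the P. alba list and 92.0% of the P. tremula list, the highest standing of any peak outside the first pair, although the interval of 9 reads reaches 4.12 to 17.1. A second peak stood 671 bp ahead of the start on P. alba (9614194 to 9614327, 7 reads, fold 4.02) and 722 bp ahead of it on P. tremula (9615953 to 9616086, 6 reads, fold 3.53).

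Another P. alba peak of this gene had 5 reads, the lowest pileup in the list, and a q value of 0.143. It lay 352 bp past the end of the transcript used for it but inside the longer one, whose 2523 bp include the position 2175 bp past its start. Potri.003G113000 had 1 peak, on P. alba chromosome 3 from 13656409 to 13656493, 282 bp ahead of the start, with 6 reads (2.202 to 13.1) and a fold of 3.52. No P. tremula peak was assigned to it.

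The fifth pair had peaks at a distance from the genes. At Potri.007G014400 a peak of 7 reads stood 2205 bp ahead of the start on P. alba (chromosome 7, 1080889 to 1081010, fold 4.02) and 2217 bp ahead of it on P. tremula (1080561 to 1080682, fold 4.03). At Potri.005G116800 a peak of 7 reads stood 4623 bp upstream on P. alba (chromosome 5, 8982208 to 8982308, fold 4.02) and 4668 bp upstream on P. tremula (8978860 to 8978978, fold 3.36). The folds differ while the pileups are equal. Recovered from these same values, the background was 0.989 reads on P. alba, against 1.38 on P. tremula. A peak of 6 reads stood 1148 bp past the gene end on P. alba (8972156 to 8972247) and 1172 bp past it on P. tremula (8968773 to 8968866). The 2 genes did not differ in their highest pileup, at 7 reads each in both lists, but the exact interval of that ratio of 1 runs from 0.299 to 3.34.

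**Figure D4:**
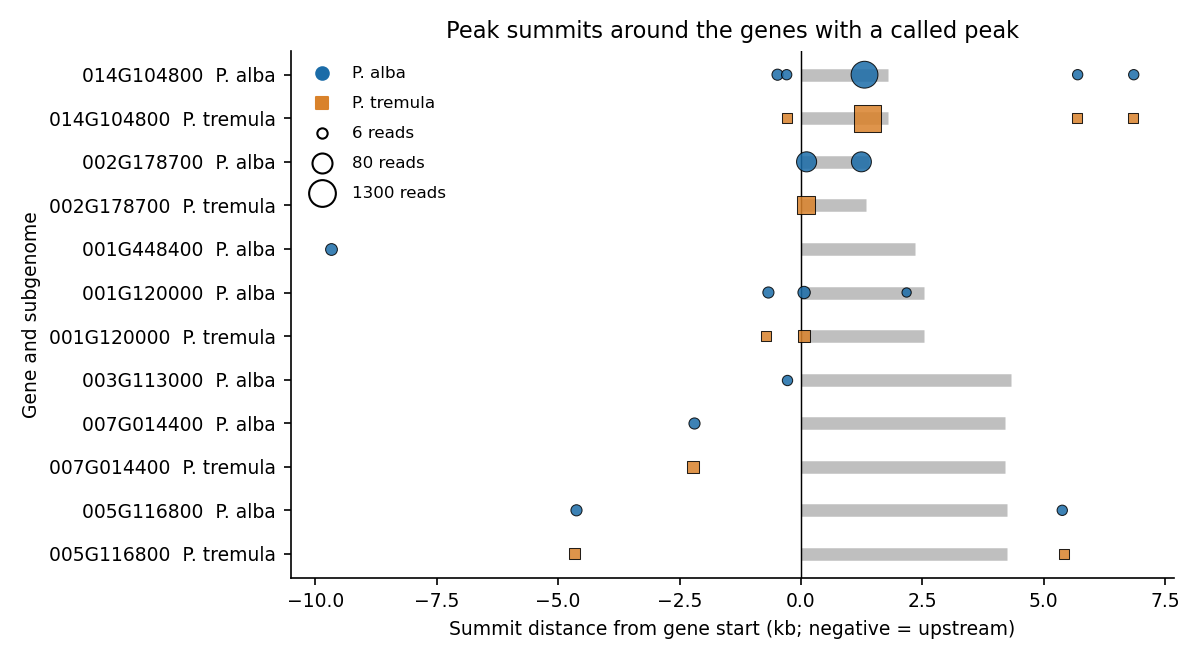
Distance of each summit from the start of the longest listed transcript (kb, negative upstream) for the genes with a called peak, P. alba above P. tremula, with the transcript as a grey bar and the marker size rising with pileup. Large markers stand inside Potri.014G104800 and Potri.002G178700, and the small ones of the other genes lie from 9682 bp upstream to 5421 bp past the start.

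Over all these genes, 10 of the 15 P. alba and 6 of the 10 P. tremula peaks were in the authors' promoter class, against 60.6% and 60.9% of all peaks. Of the others, 4 and 3 were distal intergenic and 1 in each list lay downstream of a gene. Summits stood upstream of the start in 7 and 4 cases. The shares of all peaks in these groups were not counted here, so these counts are not read as a trait of the genes. Summits were inside the named transcript in 4 and 3 cases, against 37.9% and 37.5% of all peaks. A q value at or under 0.05 was given to 12 and 8 of them, against 72.6% and 72.9% of all peaks. The background was at the floor of its list, within 0.01 reads, at 11 and 7, against 58.9% and 56.7%. With so few peaks each of these shares is coarse, and none was tested against its list.

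Between the subgenomes, positions were compared next. A P. alba and a P. tremula peak counted as a pair if they had the same gene and if the distances of their summits from its start differed by 100 bp or less. All 10 P. tremula peaks had a P. alba partner, against 73.8% of the whole P. tremula list, and 10 of the 15 P. alba peaks had one, against 66.3%. The summits of the pairs were offset by 3 to 64 bp, within the limit that the rule sets. The largest offset belonged to the long peak over Potri.014G104800. Pileups were identical in 7 of the 10 pairs, against 76.6% of all 12576 pairs. How many reads the lists share was not analysed here, and the lists are not treated as independent.

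Folds of the pairs differed in 1 case by far more than the spread over all pairs. The log2 ratio of the P. alba to the P. tremula fold was 1.05 for the start peak of Potri.002G178700, whose pileup was 2.10 times as high on P. alba. Over all pairs this log2 ratio had an SD of 0.18, and 50 pairs (0.398%) were at least as far apart. The Poisson intervals of 82 and 39 reads do not overlap, but they cover counting error only. They treat the pileups as independent counts, which the lists are not taken to be, so no difference is concluded from them. The other 9 pairs had log2 ratios from -0.00 to 0.26, among them 0.05 for the peak over Potri.014G104800. No replicate was available to check any of these differences.

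Some genes had a peak on 1 subgenome list alone. Of the 7 genes with a peak, 5 had one in both lists, against 73.6% of the 14913 genes with a peak in either. Potri.001G448400 and Potri.003G113000 had one on P. alba only, against 16.3% of all such genes, and 0 of the 7 genes had one on P. tremula only, against 10.1%. The P. alba peaks without a partner were those of these 2 genes, with 8 and 6 reads, the second peak of Potri.002G178700 with 79, the one 483 bp ahead of Potri.014G104800 with 7, and the one of 5 reads at Potri.001G120000. The peak of 8 reads at Potri.001G448400 had a higher fold than 85.3% of the P. alba list. Whether any of these genes differs between the parental copies was not tested. At the second peak of Potri.002G178700, how many P. tremula reads stood at the matching place was not analysed here.

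**Figure D5:**
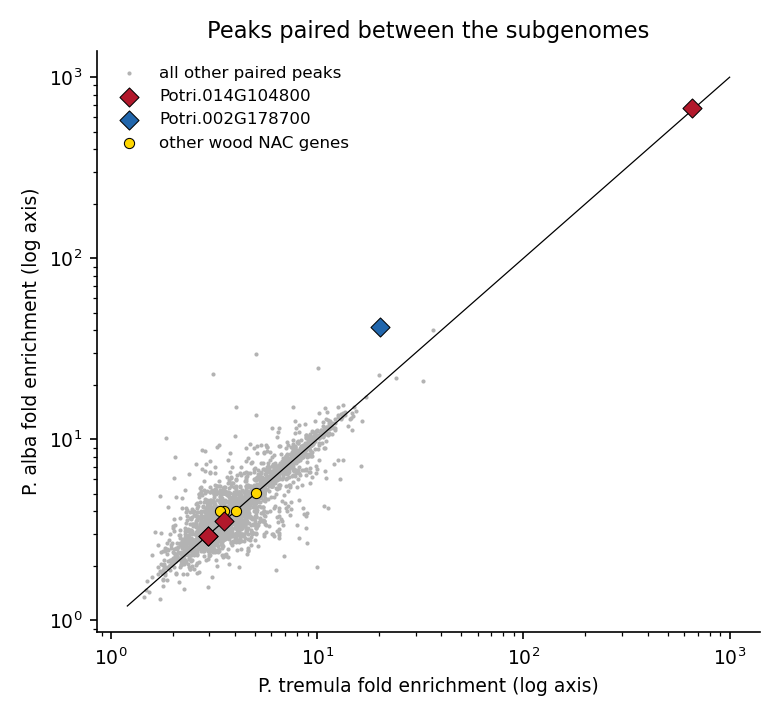
Fold enrichment on P. alba (vertical) against P. tremula (horizontal), both log axes, for the 12576 paired peaks, with the line of equal folds. The red point at 677.7 and 655.0 lies on the line, the blue point of Potri.002G178700 lies above it at 41.7 and 20.2, and the yellow points of the other NAC genes lie within the grey cloud.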

How the data were processed

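The deposited data are 1 table of annotated peaks per subgenome. Per the submitters' processing notes, the tools included the aligner BWA (0.7.17.2), the peak caller MACS2 (2.2.7.1) and the annotator ChIPseeker (1.18.0), and duplicates were marked, judging by the peak names. Which build, options, control and replicates went into the calls is not given in the sources used here. The file headers give the units. As deposited, the authors' values are the pileup (a coverage signal at the summit), the fold enrichment ratio and −log10 q values. All peak names carry the same tag, which matches no library label, so that the files give no depth per library.

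Each peak stood in 2 rows and was used once. The 10 genes, their pairing and the measures were chosen with earlier results of these data known. All peaks of all 10 genes are given. Background was recovered as (pileup + 1) / fold − 1. Distances run from the summit to the start of the transcript in the row, with positions counted from 1. Intervals are exact Poisson for pileups and exact binomial for pileup ratios, at 95%. Peaks were paired closest first. The distance limit of this step was checked on a copy of the P. alba list moved by known distances, at genes with a single peak. The choice among several peaks of the same gene was not tested. No test was made, because no value could be tied to a labelled library. Alternatives were q thresholds, promoter peaks alone, gene distance, pairing tolerance and other strength measures. No genome or annotation was used here, so no sequence is printed and gene lists defined by name could not be counted. Python 3.11.15, pandas 2.3.3, SciPy 1.17.1 and Matplotlib 3.10.9 were used.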

Additional observations from a re-analysis of the deposited data

How the results depend on the processing

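Of 52 alternative values, 37 stayed within the limits set (1.5 times for counts) and 15 moved. With q at or under 0.01, the NAC gene peaks numbered 8 on P. alba and 4 on P. tremula against 15 and 10, position pairs 4 against 10, and gene pairs with a peak at both genes on P. tremula 1 against 2, since fewer peaks pass. Promoter-class peaks alone gave 6 P. tremula peaks and 1 such gene pair. The median share of list peaks with a lower value than a NAC gene peak was 70.4% on P. alba and 40.9% on P. tremula by fold. It was 47.8% and 31.4% by pileup and 62.3% and 28.7% by −log10 q. Against promoter peaks alone it was 71.0% on P. alba, which counted as kept. On P. tremula it was 39.2%, which counted as moved although the shift from 40.9% is small. The cause of these shifts was not tested. Some log2 ratios of P. alba to P. tremula values at paired peaks moved as well. For the start peak of Potri.002G178700 the ratio was 1.05 by fold, 1.07 by pileup and 1.44 by −log10 q. For the upstream peak of Potri.005G116800 it was 0.26, 0.0 and 0.62. For the upstream peak of Potri.001G120000 it was 0.19, 0.22 and 0.62. Genes with a peak stayed between 5 and 7 on P. alba and 4 and 5 on P. tremula. With a pairing tolerance of 25 bp, 7 pairs were left. No paired analysis was possible because no value in the files could be tied to a labelled library, which also barred leaving out a replicate.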

Other observations

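The short P. alba peaks of Potri.002G178700 stood near both ends of the gene. Measured from each end, they lay close to where the long peak over Potri.014G104800 began and ended. The start peak of Potri.002G178700 covered 31 to 166 bp past the start, and the second peak reached to 123 bp before the gene end. The long peak over Potri.014G104800 ran from 147 bp past the start to 187 bp before the end. The genes are 1406 and 1796 bp long on P. alba and were not aligned, so these distances do not show matching positions. On P. tremula only the start peak of Potri.002G178700 was called. The distance between the 2 P. alba peaks of Potri.002G178700 was 1037 bp. Among the 79 P. alba peaks of 70 to 90 reads, which include both, the median length was 226 bp, the median background was 21.9 reads, and 2 were of 79 bp or shorter. These positions were compared after the values were seen. Whether the reads at these genes came from the chromosomes or from introduced DNA was not tested.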
